A study of Homo sapiens with 6 samples.

Results

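Described here are 39 genes of the hypoxia response and of glycolysis, measured in the human cell line MDA-MB-231, which was established from a triple-negative breast cancer. They are the rows of the deposited expression table whose gene symbol equals a listed member. All 39 were among the 16258 genes of the table and among the 15786 tested. Of the members, 17 are glycolytic enzymes and 22 are oxygen sensors, transcription factors and targets of the hypoxia response. Migratory cells are highly motile cells isolated after seeding in a microfluidic device, and unsorted cells are the population they were compared with, with 3 samples of 1000 cells in each group. Both groups are the same line, grown in DMEM with fetal bovine serum, with no genotype change and no drug named in the labels. Separate cultures within a group are not stated, and the p-values therefore rest on a spread among samples that may be technical. Neither the oxygen level nor the time each group spent in the device is stated, so time in the device and group cannot be told apart.

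The hypoxia response runs through HIF, a dimer of an oxygen-labile alpha subunit, HIF1A or EPAS1, with the stable partner ARNT. When oxygen is present the prolyl hydroxylases EGLN1, EGLN2 and EGLN3 mark the alpha subunit and the VHL ubiquitin ligase removes it, so that HIF activity is set largely at the protein level, which RNA does not show. When oxygen is low the dimer binds short DNA elements and raises genes for glucose breakdown, pH control, blood vessel growth and mitochondrial removal. Many tumour cells also run glycolysis at a high rate in the presence of oxygen.

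Reads assigned to the genes of the table numbered 27032454 to 34511537 in migratory and 32789072 to 74227978 in unsorted libraries, of which mitochondrial transcripts took 0.951% to 1.57% in migratory and 1.37% to 2.17% in unsorted libraries. Across all tested genes, the first component, with 33.7% of the variance, had all 3 migratory libraries on one side and all 3 unsorted ones on the other. The next, with 22.5%, set migratory replicate 1 on the side of unsorted replicates 1 and 3, away from migratory replicates 2 and 3. All 5 markers fixed for the line (VIM, CD44, AXL, CAV1 and EGFR) were read in every library, with a summed level of 128063 to 130381 normalised reads in migratory and 90519 to 98076 in unsorted libraries. Of 5 markers expected to be low in a triple-negative line, 3 were measured, ERBB2, CDH1 and EPCAM. Measured here means being among the genes of the table, whose lowest mean was 8.09 normalised reads. A marker that is not among them may have had few or no reads. ERBB2, CDH1 and EPCAM summed to 2254 to 3790 in migratory and 2654 to 4247 in unsorted libraries, each overlapping between the groups. EPCAM was not absent, at 2385, 2048 and 1512 in migratory libraries, against 3089, 1734 and 2055 in unsorted ones. Markers of other cell types had lower sums in migratory libraries: 5 of 7 fibroblast markers were measured and summed to 818 to 2111 normalised reads in migratory, against 2772 to 4183 in unsorted libraries. The largest part in unsorted libraries was COL1A2, at 302, 1081 and 540 in migratory libraries, against 1945, 2780 and 1144 in unsorted ones. COL1A2 and COL1A1 did not overlap between the groups, whereas COL3A1, LUM and PDGFRB overlapped. The 3 of 6 endothelial markers that were measured summed to 640.2 to 976 in migratory, against 1297 to 1878 in unsorted libraries. PECAM1 carried this sum, at 562, 942 and 845 in migratory libraries, against 1225, 1619.7 and 1850.3 in unsorted ones, while KDR and TEK were at 0 to 74.1 in all libraries and overlapped between the groups. The 2 of 6 blood markers that were measured summed to 28.5 to 112 in migratory, against 307 to 411 in unsorted libraries, nearly all of it CD14, and none of 3 erythroid markers was measured. Among these markers of other cell types, TEK had no read in migratory replicate 2, KDR none in unsorted replicate 3 and LYZ none in unsorted replicate 1. Whether these markers were read from other cells or from the line itself was not tested. The part of these markers, and of the mitochondrial share, in the results below was not tested either.

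No member passed the test over all genes, a limma fit on log2 of the normalised read count + 1 with a Benjamini-Hochberg adjusted p of 0.05. Over all 15786 genes, 0.0443% passed as higher and 0.19% as lower in migratory cells. At an unadjusted p under 0.05, 11 of 39 members (28.2%) were lower, against 10.0% of all tested genes, and 2 of 39 (5.13%) were higher, against 7.7%. The members were chosen with earlier results of these data known. Their shares, here and below, are therefore a description and no independent support. The ranges of both groups were disjoint for 11 members that were lower in migratory cells, against 12.5% of all tested genes, and for 1 that was higher, against 11.3%. With edgeR's quasi-likelihood test on recovered whole reads none of the members was called (0.108% of all genes lower and 0.0253% higher). DESeq2 on the same reads called 5, all lower, EGLN3, CA9, CA12, ADM and ALDOC (12.8% of members, against 3.61% of all genes lower and 2.31% higher). In RNA from bulk samples such as these, fewer cells that express a gene and less RNA per cell cannot be told apart.

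Enzymes and the remaining hypoxia genes are described apart. Of the 22 hypoxia members, 19 had a negative log2 fold change, with a median of -0.33, whereas 9 of the 17 enzymes did, with a median of -0.08. The median of all tested genes was -0.03, with 51.9% of them negative and 48.1% positive. In the hypoxia members, the library medians, taken from the unsorted mean on the log2 scale, were -0.57, -0.18 and -0.32 in migratory replicates 1 to 3, against -0.03, 0.05 and 0.01 in unsorted replicates 1 to 3. For the enzymes they were -0.34, 0.07 and -0.14 in migratory libraries, against -0.05, 0.05 and -0.05 in unsorted ones. So all 3 migratory libraries lay below all 3 unsorted ones for the hypoxia members. For the enzymes migratory replicate 2 lay slightly above the unsorted libraries, at 0.07 against at most 0.05, with a within-group SD of 0.15. Because deviations are taken from the unsorted mean, the unsorted medians are held close to it by construction, so part of the separation is built in.

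**Figure D1:**
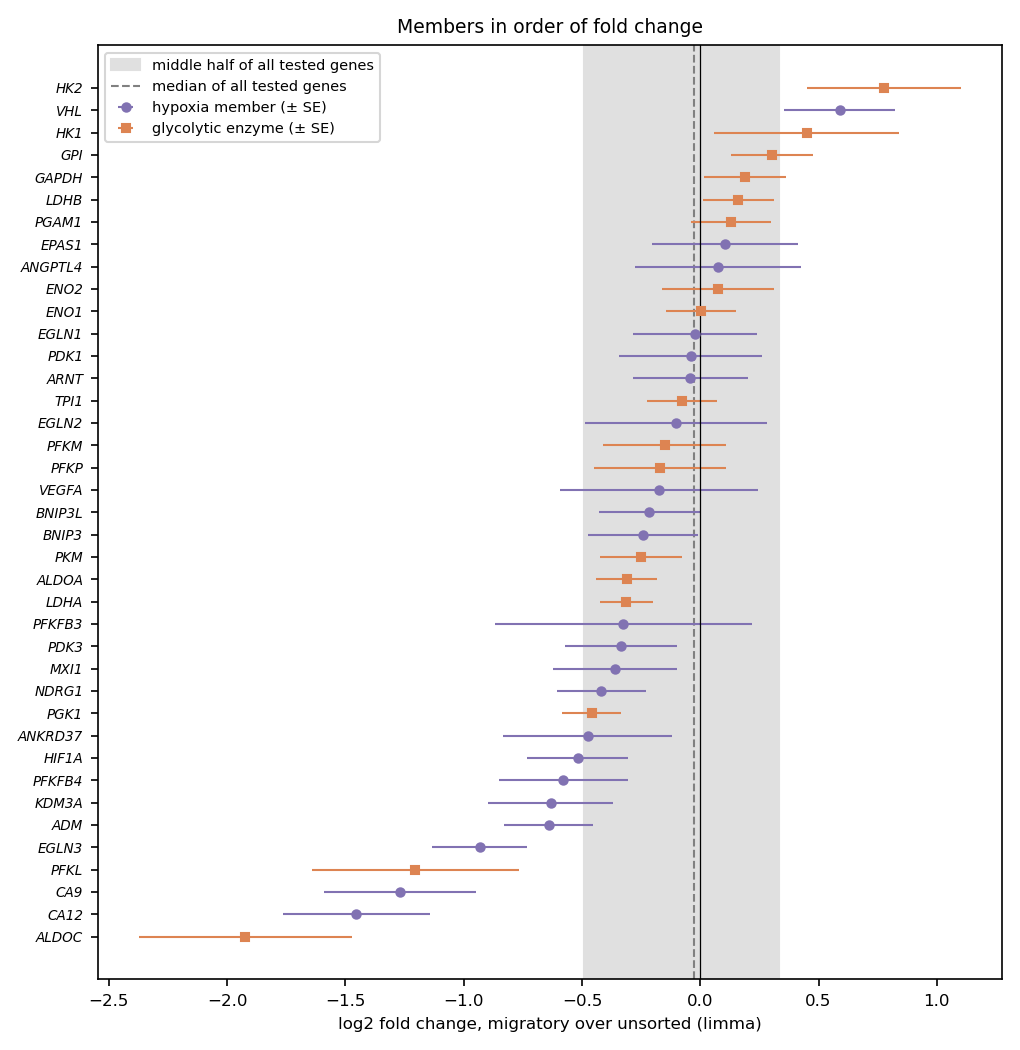
Log2 fold change of the 39 members, migratory over unsorted, with the limma standard error as bars, from the highest at the top to the lowest. The grey band holds the middle 50% of all tested genes. ALDOC, CA12, CA9 and PFKL lie lowest, from -1.92 to -1.20, and HK2 and VHL highest, at 0.78 and 0.59.

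The regulatory DNA of the members with the smallest p is shown because HIF binds a core that reads ACGTG or GCGTG. RefSeq windows (GRCh38.p14) from 250 bases before to 50 after a gene start were searched for ACGTG and GCGTG on both strands. Windows were matched for 35 of the 39 members, all but VHL, VEGFA, BNIP3L and NDRG1. ACGTG was in 25 of their 62 windows (40.3%), against 25.1% of the 14793 windows of tested genes, and GCGTG in 26 (41.9%), against 47.5%. Counted per gene with at least 1 such window, ACGTG was in 60.0% of the 35 members, against 32.2% of tested genes, and GCGTG in 60.0%, against 57.4%, so the direction for GCGTG depends on the unit counted. Members had more windows per gene, 62 in 35 genes, against 14793 in 10119 tested genes. A gene with more windows has more places for a match, and the shares per gene were not corrected for this. Some genes have several windows that overlap, so windows are not independent, and no test was made. Capitals mark each match, where CACGT and CACGC are the same motifs on the other strand, and CACGTG counts on both.
CA12: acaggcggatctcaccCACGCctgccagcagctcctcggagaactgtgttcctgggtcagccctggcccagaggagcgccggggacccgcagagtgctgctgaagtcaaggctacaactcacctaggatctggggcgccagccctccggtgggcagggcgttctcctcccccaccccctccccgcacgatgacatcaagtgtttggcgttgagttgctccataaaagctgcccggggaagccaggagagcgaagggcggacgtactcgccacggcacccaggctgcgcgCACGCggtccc
EGLN3: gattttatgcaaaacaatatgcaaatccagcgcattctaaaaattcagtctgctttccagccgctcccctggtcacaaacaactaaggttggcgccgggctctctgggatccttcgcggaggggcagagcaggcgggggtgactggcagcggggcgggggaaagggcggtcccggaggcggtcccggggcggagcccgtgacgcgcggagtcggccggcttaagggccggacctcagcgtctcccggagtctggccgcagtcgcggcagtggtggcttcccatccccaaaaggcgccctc
CA9: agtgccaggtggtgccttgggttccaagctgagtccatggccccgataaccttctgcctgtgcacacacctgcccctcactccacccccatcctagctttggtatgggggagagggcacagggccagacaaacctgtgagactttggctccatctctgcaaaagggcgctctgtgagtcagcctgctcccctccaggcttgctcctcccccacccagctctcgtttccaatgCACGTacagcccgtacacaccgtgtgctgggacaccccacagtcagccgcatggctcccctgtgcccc
ALDOC: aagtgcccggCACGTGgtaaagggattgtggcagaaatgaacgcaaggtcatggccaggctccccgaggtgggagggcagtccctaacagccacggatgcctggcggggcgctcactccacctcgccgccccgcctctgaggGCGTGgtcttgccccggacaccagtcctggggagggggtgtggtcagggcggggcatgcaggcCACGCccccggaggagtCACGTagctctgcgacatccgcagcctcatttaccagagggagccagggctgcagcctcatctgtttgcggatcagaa
PGK1: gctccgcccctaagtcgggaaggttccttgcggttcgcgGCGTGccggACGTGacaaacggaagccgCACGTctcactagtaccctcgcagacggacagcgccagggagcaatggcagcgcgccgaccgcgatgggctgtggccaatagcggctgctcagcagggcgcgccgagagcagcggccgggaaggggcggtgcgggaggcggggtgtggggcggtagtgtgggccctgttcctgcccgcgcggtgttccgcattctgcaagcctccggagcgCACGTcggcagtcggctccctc
These are 5′ to 3′ on the gene's strand, from chr15:63381797-63382096 (minus strand) for CA12, chr14:33951025-33951324 (minus) for EGLN3, chr9:35673678-35673977 (plus) for CA9, chr17:28576846-28577145 (minus) for ALDOC and chrX:78103998-78104297 (plus) for PGK1. CA9 held 1 ACGTG, which begins at position -18 from the start. PGK1 held 3 ACGTG and 1 GCGTG, of which 3 begin at -211, -202 and -183. ALDOC held 3 ACGTG, counting CACGTG on both strands, and 2 GCGTG. CA12 held 2 GCGTG and no ACGTG. EGLN3 held neither in this window, which says only that these letters are not in these 300 bases.

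The pair of membrane carbonic anhydrases, which convert carbon dioxide to bicarbonate and acid at the cell surface and are textbook HIF targets, had the lowest fold changes of the hypoxia members. CA12 (chromosome 15, 63321378 to 63382161, GRCh38), whose window held GCGTG and no ACGTG, had 451, 872 and 422 normalised reads in migratory replicates 1 to 3, against 1748, 1522 and 1288 in unsorted replicates 1 to 3. All migratory libraries were below all unsorted ones, and migratory replicate 2 was the highest of its group. The means were 582 ± 252 normalised reads in migratory and 1519 ± 229.9 in unsorted cells (SD, n = 3 each), 2.61-fold lower, with a log2 fold change of -1.45 (SE 0.31) and a limma adjusted p of 0.0797. CA9 (chromosome 9, 35673856 to 35681159) had 558, 638 and 317 normalised reads in migratory libraries, against 1537, 1100.5 and 939 in unsorted libraries, again without overlap and with migratory replicate 3 lowest. Its log2 fold change was -1.27 (SE 0.32), with a limma adjusted p of 0.107 and a DESeq2 adjusted p of 0.0083. ARHGEF39, transcribed from the other strand, covers 38.5% of the exon sequence of CA9, and the libraries do not mark the strand. ARHGEF39 itself had 247, 248 and 418 normalised reads in migratory libraries, against 395, 182 and 599 in unsorted ones, with overlap. The share of CA12 in the sum of both anhydrases per kb of exon was 20.9% ± 4.59 in migratory and 22.8% ± 1.91 in unsorted libraries (SD, n = 3 each; two-sided exact permutation p of 0.5).

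Among the oxygen sensors, the prolyl hydroxylase EGLN3, whose gene is itself induced by HIF, had the smallest p. EGLN3 (chromosome 14, 33924231 to 34462774) had 1114, 1056 and 1034 normalised reads in migratory libraries, against 1853, 2138 and 2134 in unsorted libraries. The groups did not overlap, and the migratory libraries lay within 1.08 times of each other. The means were 1068 ± 41.1 normalised reads in migratory and 2042 ± 163 in unsorted cells (SD, n = 3 each), 1.91-fold lower, with a limma adjusted p of 0.0797 and a DESeq2 adjusted p of 0.00026. EGLN1, the main hydroxylase of HIF1A in most cells, had 2331, 2658 and 3751 in migratory libraries, against 2289, 3881 and 2733 in unsorted ones. EGLN2 had 152, 169 and 335 in migratory libraries, against 180.4, 202 and 292 in unsorted ones. Both overlapped, with log2 fold changes of -0.02 (SE 0.26) and -0.10 (SE 0.39). The read-through gene RAB4B-EGLN2 shares 30.6% of the exon sequence of EGLN2, which leaves the value of EGLN2 less certain. Per kb of exon, EGLN3 made up 30.6, 26.8 and 19.9% of the sum of the 3 hydroxylases in migratory libraries, against 42.4, 33.96 and 40.8% in unsorted ones. All migratory shares were below all unsorted shares, and the two-sided exact permutation p was 0.1, the smallest that 3 against 3 allows. The share of EGLN1 was 68.7% ± 4.09 in migratory and 56.1% ± 5.47 in unsorted libraries (SD, n = 3 each; two-sided exact permutation p of 0.1), without overlap. With the longest transcript in place of the union of exons the mean shares of EGLN3 were 45.2% in migratory and 60.5% in unsorted libraries, so the level of the share depends on which transcripts the cells use.

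VHL, the substrate receptor of the ligase that removes HIF alpha subunits, was the 1 hypoxia member with higher values in all migratory libraries. It had 1067, 1078 and 936 normalised reads in migratory libraries, against 762, 732 and 566 in unsorted ones, without overlap. The log2 fold change was 0.59 (SE 0.23), with a limma adjusted p of 0.235. The alpha subunit HIF1A (chromosome 14, 61695513 to 61748259) had 16734, 25262 and 28827 in migratory libraries, against 27942, 36048 and 35599 in unsorted ones. Migratory replicate 3 was above unsorted replicate 1, so the groups overlapped, and the log2 fold change was -0.52 (SE 0.21, limma adjusted p of 0.249) and -0.29 without migratory replicate 1, the lowest library. EPAS1, the alternative alpha subunit, had 485, 687 and 416 in migratory libraries, against 467, 646 and 369 in unsorted ones, in overlapping ranges. Per kb, HIF1A made up 98.4% ± 0.543 in migratory and 98.95% ± 0.2801 in unsorted libraries of the sum of HIF1A and EPAS1 (SD, n = 3 each; two-sided exact permutation p of 0.3), and EPAS1 the rest. The partner ARNT had a log2 fold change of -0.04 (SE 0.24).

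Of the secreted targets, ADM, the vasodilator peptide adrenomedullin (chromosome 11, 10304680 to 10307397), had 2733, 3637 and 3102 normalised reads in migratory libraries, against 4821, 4665 and 5203 in unsorted ones. The groups did not overlap, the mean was 1.55-fold lower in migratory cells, and the limma adjusted p was 0.137. VEGFA, the endothelial growth factor, had 5321, 9365 and 12641 in migratory libraries, against 5345, 17370.2 and 9768 in unsorted ones. It spread 2.38-fold within the migratory and 3.25-fold within the unsorted group, with both replicates 1 lowest, and gave a log2 fold change of -0.18 (SE 0.42). ANGPTL4, an inhibitor of lipoprotein lipase, had 582, 1424 and 1328 in migratory libraries, against 1130.4, 789.8 and 1054 in unsorted ones. VEGFA and ANGPTL4 both overlapped between the groups.

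Among the intracellular targets 2 did not overlap between the groups. KDM3A, a histone H3 lysine demethylase, had 735, 764 and 1212 normalised reads in migratory libraries, against 1223, 1630.0 and 1273 in unsorted ones. It did not overlap by a narrow gap between migratory replicate 3 and unsorted replicate 1, with a log2 fold change of -0.63 (SE 0.27, limma adjusted p of 0.257). NDRG1, a stress-responsive gene of cell differentiation, had 6858, 9281 and 6272 in migratory libraries, against 9355, 10258 and 9933 in unsorted ones, without overlap and with an unadjusted limma p of 0.051. The mitophagy receptors BNIP3 and BNIP3L overlapped between groups, with log2 fold changes of -0.24 (SE 0.23) and -0.22 (SE 0.21). BNIP3 made up 62.6% ± 3.903 in migratory and 63.05% ± 2.602 in unsorted libraries of their sum per kb (two-sided exact permutation p of 1). The MYC antagonist MXI1 (-0.36, SE 0.26) and the ankyrin-repeat gene ANKRD37 (-0.48, SE 0.36) also overlapped, and UFSP2 on the other strand covers 35.2% of the exon sequence of ANKRD37. PDK1 and PDK3, kinases that shut off pyruvate dehydrogenase, had log2 fold changes of -0.04 (SE 0.30) and -0.33 (SE 0.24) and overlapped. For PDK1 the mean had the other sign, at 1376 ± 495 normalised reads in migratory and 1367 ± 251.5 in unsorted cells (SD, n = 3 each).

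**Figure D2:**
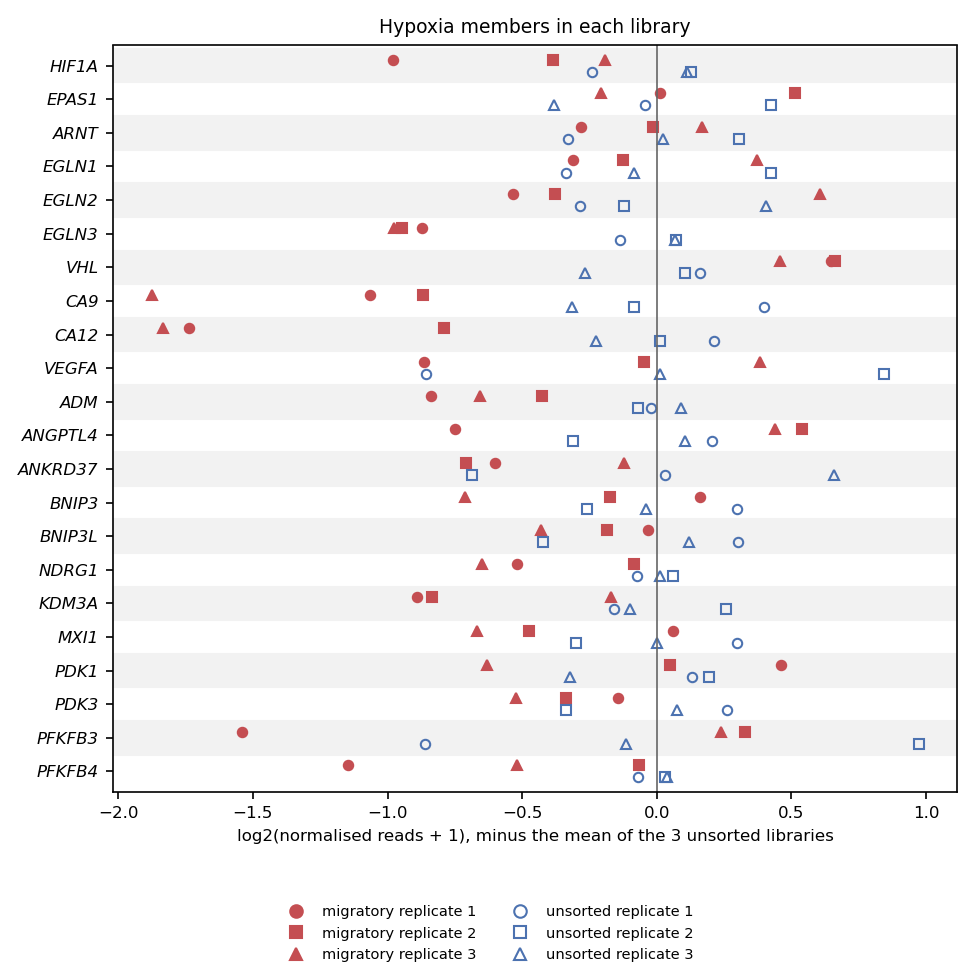
Each of the 22 hypoxia members in each library, as log2(normalised reads + 1) minus the mean of the 3 unsorted libraries. Filled red points are migratory and open blue points unsorted libraries, and the shape gives the replicate. CA9, CA12, EGLN3 and ADM have all red points left of the blue ones, VHL has them to the right, and PFKFB3 and VEGFA are widely spread in both groups.

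The bifunctional enzymes PFKFB3 and PFKFB4 make fructose 2,6-bisphosphate, the main activator of phosphofructokinase. PFKFB3 had 1229.7, 4491 and 4224 normalised reads in migratory libraries, against 1973, 7029 and 3312 in unsorted ones. Replicate 1 was lowest in each group, and the range within a group, 3.65-fold in migratory and 3.56-fold in unsorted cells, exceeded the difference of the means. PFKFB4 had 1071, 2264 and 1654 in migratory libraries, against 2262, 2427 and 2435 in unsorted ones. The 3 unsorted values of PFKFB4 were close together and migratory replicate 2 reached them, with a log2 fold change of -0.58 (SE 0.27, limma adjusted p of 0.303). For PFKFB3, HK1, HK2 and PFKP the 3 highest libraries were migratory replicates 2 and 3 and unsorted replicate 2. These are 10.3% of the members, and 9.7% of all tested genes had the same 3 libraries highest, a share near the background.

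Glycolytic enzymes together took 3.17%, 3.30% and 3.24% of all reads in migratory libraries, against 3.60%, 3.90% and 3.86% in unsorted ones. The groups did not overlap, with means of 3.23% ± 0.0639 in migratory and 3.79% ± 0.163 in unsorted libraries (SD, n = 3 each) and a two-sided exact permutation p of 0.1, the smallest that 3 against 3 allows. The 95% Wilson interval of each share, which covers counting error only, was at most 0.00673 percentage points to either side. This share is a sum weighted by the enzymes with the most reads, while the median over the 17 enzymes weighs each alike. The share is also taken of each library's total, while the fold changes rest on values scaled by a size factor. The part of either in the difference between share and median was not tested. By mean level, LDHA, PKM and ENO1 ranked 4, 8 and 9 in the whole table. The 10 genes with the most reads in each library took 7.59%, 7.88% and 8.07% in migratory libraries, against 8.81%, 8.19% and 9.16% in unsorted ones. That share was thus also lower without overlap, and its part in the enzyme share was not tested. The 22 hypoxia members took 0.261% ± 0.0170 of reads in migratory and 0.347% ± 0.0166 in unsorted libraries (two-sided exact permutation p of 0.1), also without overlap. That sum is likewise weighted by the members with the most reads, HIF1A, BNIP3, BNIP3L and VEGFA. Each of these overlapped between the groups, whereas NDRG1, the next by mean level, did not.

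At the entry of glucose into the pathway, HK2 and PFKL lay on opposite sides of zero. HK2, the hexokinase that HIF induces, had 1009, 1374 and 1377 normalised reads in migratory libraries, against 622, 1184 and 515 in unsorted ones. Unsorted replicate 2 exceeded migratory replicate 1, so the groups overlapped, and the log2 fold change was 0.78 (SE 0.33) with a limma adjusted p of 0.257. HK1, the constitutive hexokinase, spread 2.40-fold within migratory and 2.37-fold within unsorted libraries, with a log2 fold change of 0.45 (SE 0.39). Per kb HK2 made up 12.03% ± 3.32 in migratory and 9.67% ± 1.25 in unsorted libraries of the sum of both hexokinases (two-sided exact permutation p of 0.3). PFKL, the liver-type subunit of phosphofructokinase (chromosome 21, 44300051 to 44327376), had 1495, 6349 and 4561 in migratory libraries, against 8953, 8064 and 7339 in unsorted ones. All migratory libraries were below the unsorted ones, and migratory replicate 1 was the lowest of its group. The log2 fold change was -1.20 (SE 0.44, limma adjusted p of 0.205) with all libraries and -0.59 without migratory replicate 1. The platelet-type and muscle-type subunits PFKP and PFKM overlapped between groups, with log2 fold changes of -0.17 (SE 0.28) and -0.15 (SE 0.26). Per kb PFKL made up 9.26, 19.6 and 13.97% of phosphofructokinase reads in migratory libraries, against 29.9, 19.7 and 25.04% in unsorted ones. The shares did not overlap, though migratory replicate 2 and unsorted replicate 2 nearly met (two-sided exact permutation p of 0.1).

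Of the aldolases, which split fructose 1,6-bisphosphate, both had lower values. ALDOC, the isoform of brain (chromosome 17, 28573115 to 28577264), had 236, 295 and 79.8 normalised reads in migratory libraries, against 758, 649.6 and 624 in unsorted ones. No library overlapped, and migratory replicate 3 was lowest. The means were 203 ± 111 normalised reads in migratory and 677 ± 71.3 in unsorted cells (SD, n = 3 each), 3.33-fold lower, with a log2 fold change of -1.92 (SE 0.45), a limma adjusted p of 0.0965 and a DESeq2 adjusted p of 0.0042. The main isoform ALDOA (chromosome 16, 30064164 to 30070457) had 87913, 101239 and 90802 in migratory libraries, against 119900.0, 103855 and 123824 in unsorted ones, 1.24-fold lower on average. The gap between migratory replicate 2 and unsorted replicate 2 was narrow, and the limma adjusted p was 0.2503. An annotated protein-coding gene on the same strand, AC093512.2, shares 42.3% of the exon sequence of ALDOA. ALDOC made up 0.357, 0.388 and 0.117% of aldolase reads per kb in migratory libraries, against 0.839, 0.8297 and 0.669% in unsorted ones (two-sided exact permutation p of 0.1), a minor part in both groups.

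Among the later steps PGK1, phosphoglycerate kinase, which makes ATP (chromosome X, 77910739 to 78129296), had 72996, 86208 and 83471 normalised reads in migratory libraries, against 116000.0, 103760.0 and 113504 in unsorted ones. The groups did not overlap, the mean was 1.37-fold lower in migratory cells, and the limma adjusted p was 0.124. GAPDH, the enzyme before it, had 184048, 151966 and 119432 in migratory libraries, against 142522, 112878 and 140254 in unsorted ones, with overlap and a log2 fold change of 0.19 (SE 0.17). PKM, pyruvate kinase, had 154185, 235381 and 183863 in migratory libraries, against 189537, 233626 and 254126 in unsorted ones, and its splice forms are not separated in these values. PKM overlapped, with a log2 fold change of -0.25 (SE 0.17). The remaining enzymes of the chain overlapped between the groups too, with log2 fold changes near or above zero: GPI (0.30), TPI1 (-0.08), PGAM1 (0.13), ENO1 (0.00) and ENO2 (0.07), and standard errors of 0.15 to 0.24 on the log2 scale.

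The subunits of lactate dehydrogenase lay on opposite sides of zero. LDHA, the subunit that favours lactate formation (chromosome 11, 18394388 to 18408425), had 303501, 310725 and 362885 normalised reads in migratory libraries, against 387071, 418374 and 404459 in unsorted ones. The groups did not overlap, with a log2 fold change of -0.31 (SE 0.11) and a limma adjusted p of 0.2003. LDHB, the subunit of heart (chromosome 12, 21635342 to 21757857), had 41653, 35671 and 37085 in migratory libraries, against 36814, 29335 and 36479 in unsorted ones, with overlap and a log2 fold change of 0.16 (SE 0.15). Within each library, LDHB made up 22.2, 19.3 and 17.5% of both subunits per kb in migratory libraries, against 16.5, 12.7 and 15.8% in unsorted ones. The shares did not overlap, at 19.7% ± 2.36 in migratory and 15.02% ± 2.01 in unsorted libraries (SD, n = 3 each; two-sided exact permutation p of 0.1, the smallest possible). AC010197.2 on the same strand shares 33.4% of the exon sequence of LDHB.

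**Figure D3:**
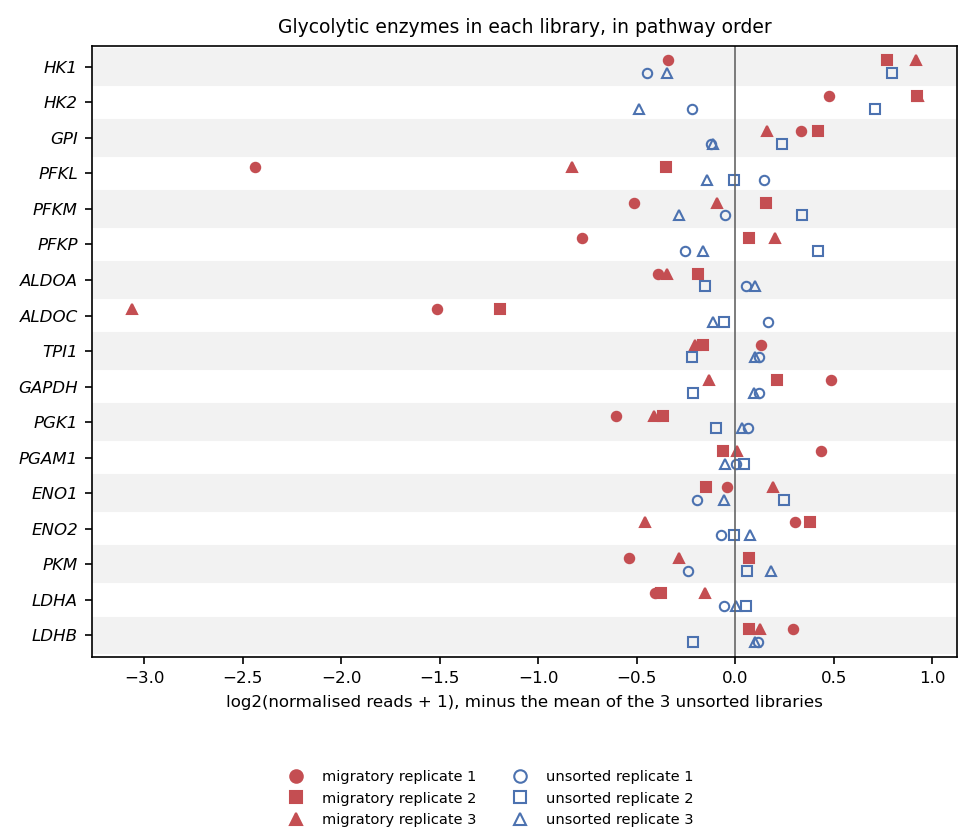
Each of the 17 glycolytic enzymes in each library, in pathway order from hexokinase to lactate dehydrogenase, as log2(normalised reads + 1) minus the mean of the 3 unsorted libraries. Filled red points are migratory and open blue points unsorted libraries. PFKL, ALDOA, ALDOC, PGK1 and LDHA have all red points left of the blue ones, by up to -1.92 on average for ALDOC.

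**Figure D4:**
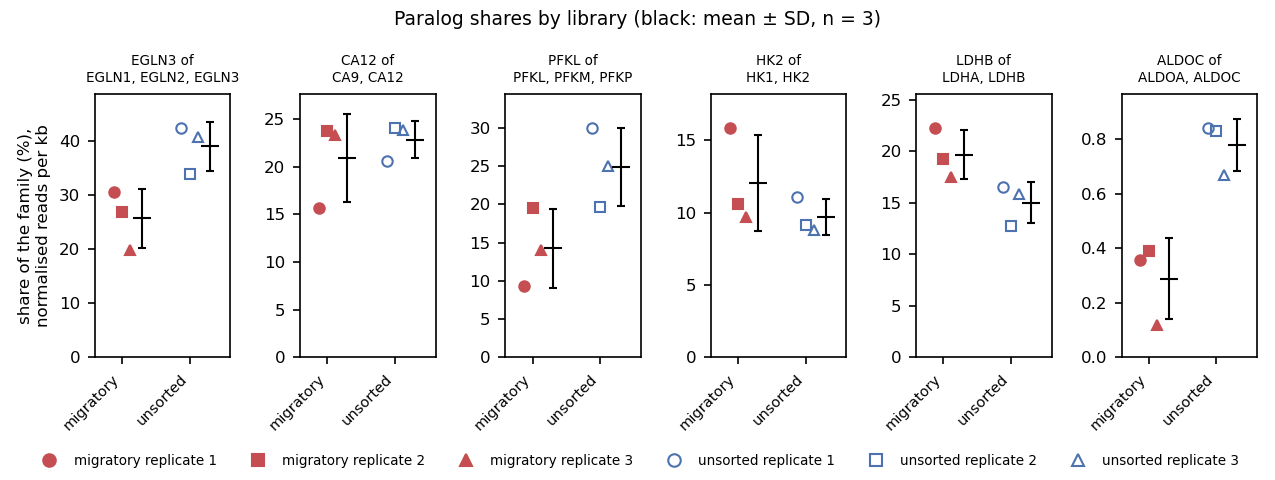
Share of 1 paralog in the sum of its family, in percent of normalised reads per kb of exon, for 6 families. Filled red points are migratory and open blue points unsorted libraries, black marks are the mean ± SD of 3 libraries, and each vertical axis starts at 0. EGLN3, PFKL and ALDOC have lower shares in all migratory libraries, LDHB has higher ones, and CA12 and HK2 overlap.

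Pseudogenes limit the values of the enzymes and of the hypoxia member BNIP3. The annotation names 62 pseudogenes of GAPDH, 39 of BNIP3, 13 of PGAM1, 6 of LDHA, 5 of PKM and 4 each of TPI1 and ENO1. The sources used here do not state how reads that also match such copies were assigned. Reads listed under such pseudogenes were few: the 7 GAPDH pseudogenes in the table summed to 0.216% to 0.308% of the GAPDH value in migratory and 0.236% to 0.299% in unsorted libraries. For LDHA the 5 in the table summed to 1.64% to 1.79% in migratory and 1.40% to 1.54% in unsorted libraries. This share was higher in all migratory libraries, and whether reads moved between the copies was not tested.

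Per kb of exon, the members spanned more than 3 orders of level. The length used was the union of exons, 6210 bases for LDHA and 5325 for BNIP3. Their longest transcripts have 2416 and 3066 bases, so the levels and their order depend on that choice. LDHA had the highest mean in both groups, at 52448 ± 5218 in migratory and 64944 ± 2526 in unsorted cells (mean normalised reads per kb ± SD, n = 3 each). In migratory libraries LDHA overlapped with GAPDH, at 48873, 50036 and 58436 for LDHA and 61740, 50978 and 40064 for GAPDH. GAPDH, at 50928 ± 10838 in migratory and 44242 ± 5535 in unsorted cells, TPI1, at 38462 ± 5087 in migratory and 40634 ± 5194 in unsorted cells, and ENO1, at 39349.6 ± 4812 in migratory and 39430.3 ± 6348 in unsorted cells, followed in unsorted cells and overlapped there with each other in that order. In unsorted libraries ALDOA and PKM came next and overlapped with each other, and PGK1 and then LDHB lay below them without overlap there. In migratory libraries PGK1, at 13243, 15640 and 15143, overlapped with LDHB, at 13963, 11958 and 12432. HIF1A was the highest of the hypoxia members in unsorted cells, at 4583 ± 1206 in migratory and 6445 ± 884 in unsorted cells, next to BNIP3, at 4914 ± 1431 in migratory and 5713 ± 1120.2 in unsorted cells, with overlap. By mean level ALDOC ranked 37 of 39 in migratory and 30 of 39 in unsorted cells, and EGLN3 ranked 33 in migratory and 28 in unsorted cells. EGLN2 was the lowest in both groups, at 33.2 ± 15.4 in migratory and 34.2 ± 9.002 in unsorted cells.

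The members are part of a wider set of hypoxia genes, for which 56 other symbols were listed and 49 were measured and tested. Some genes were listed under both an older and a newer name, such as TCEB1 and ELOC, so 56 is not a count of genes. Of these, 1 passed the test over all genes, as higher in migratory cells, and is not reported here. At an unadjusted p under 0.05, 13 of 49 (26.5%) were lower and 5 (10.2%) higher, against 10.0% and 7.7% of all tested genes, and the list median was -0.24. This list and the next were also chosen with earlier results of these data known, so their shares are a description only. PPP1R3C, which targets a phosphatase to glycogen, had 284, 262 and 259 normalised reads in migratory libraries, against 694, 1415 and 877 in unsorted ones, with a limma adjusted p of 0.0505. The placental growth factor PGF had 366, 524 and 559 in migratory libraries, against 935, 1193 and 1047 in unsorted ones (limma adjusted p of 0.0841). LOX, which crosslinks collagen, had 1208, 1800.4 and 2083 in migratory libraries, against 3301, 3259.9 and 3327 in unsorted ones (limma adjusted p of 0.0992). None of these 3 overlapped between groups and none passed over all genes in limma, while DESeq2 called all 3.

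Genes of the steps around glycolysis formed the other list. Of 60 listed symbols for glucose and lactate transport, pyruvate entry, the pentose phosphate branch and minor isoforms, 44 were measured, with a median log2 fold change of 0.08. TIGAR was listed under its older name C12orf5 too, so 60 is not a count of genes. None passed over all genes in limma or in edgeR, and DESeq2 called 2, both lower. At an unadjusted p under 0.05, 5 (11.4%) were lower and 1 (2.27%) higher, against 10.0% and 7.7% of all tested genes. ENO3, the enolase of muscle, had 298, 527 and 409 normalised reads in migratory libraries, against 889, 649.6 and 1325 in unsorted ones (limma adjusted p of 0.127). LDHD, the dehydrogenase of D-lactate, had 43.2, 28.6 and 83.2 in migratory libraries, against 104, 175 and 254 in unsorted ones (limma adjusted p of 0.1305). Both were lower in all migratory libraries, as was the kinase PDK2, at 1078, 1254 and 1222 in migratory libraries, against 1752, 1555 and 2297 in unsorted ones (limma adjusted p of 0.197). TIGAR, which lowers fructose 2,6-bisphosphate, had the higher values in all migratory libraries, at 2937, 2513 and 2792, against 2102, 1529 and 1951 in unsorted ones (limma adjusted p of 0.204).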

How the data were processed

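RNA of 1000 cells per sample was isolated with a low-input kit, and its cDNA was amplified by SMART-seq and tagmented with Nextera XT, per the labels' protocols, and each sample was run on 4 lanes. These libraries carry no strand mark and no molecular identifiers, so counting intervals cover counting error only. The deposited values are a signal: the authors scaled each sample's gene counts by a single size factor, with no correction for gene length. HISAT2, HTSeq and DESeq2 are named with hg38 and GRCh38.p7, per the submitters' processing notes, without version or setting. Whole reads were recovered, 100% of values falling within 0.01 read of a whole number, and within-group pairs of libraries gave chi-square values of 43.7 to 151 per degree of freedom, so no library was a repeat of another.

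The test was limma 3.58.1 (R 4.3.3, trend on) over genes whose mean reached 10, on log2(value + 1), which understates the change of low genes. P-values are two-sided and Benjamini-Hochberg adjusted over all 15786 genes. Alternatives were edgeR 4.0.16 and DESeq2 1.42.0 on the recovered reads (3 adjusted p-values from DESeq2 were missing), other pseudocounts, filters and scalings, array weights, a replicate block and leaving out each library. The fits were also run on simulated data, whose outcome is not given here and on which no result rests. Single values were compared by exact permutation over the 6 samples. Coordinates, exon lengths and overlaps come from GENCODE v29 (GRCh38), and promoter windows from RefSeq. Values in every library are given for members with an unadjusted p under 0.05 and for a fixed set of others; those of NDRG1, PFKFB3, PFKFB4 and ANGPTL4 were added after their values were seen. Of the other lists the 4 genes with the smallest p were taken, and promoters were taken for the members with the smallest p. Some genes that entered the tests are not reported here. The members and lists were chosen with earlier results of these data known.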

Additional observations from a re-analysis of the deposited data

How the results depend on the processing

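The count of genes called over the whole table was 37 and depended on the setting: 68 with a pseudocount of 5, 78 with a mean of at least 50, 75 with upper-quartile scaling, 21 in edgeR, 933 in DESeq2, 507 with array weights, and 1 to 44 with 1 library left out. No member was called in edgeR, with other pseudocounts, filters or scalings, or with any library left out, while 5 were called by DESeq2 and 3 (EGLN3, CA12 and ALDOC) with array weights. Members lower at an unadjusted p under 0.05 numbered 7 to 12 with 1 library left out, with 7 without unsorted replicate 3, and those higher numbered 0 to 4. Of the other hypoxia genes, 1 was called with all libraries, 2 with a pseudocount of 5, 2 with a mean of at least 50, 2 with upper-quartile scaling, 6 in DESeq2 and 7 with array weights, and of the glucose and pyruvate genes 2 in DESeq2. The cause of these differences between settings was not tested.

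CA12, EGLN3, CA9, ADM, ALDOC, PGK1, PFKL, LDHA, ALDOA, KDM3A and HIF1A stayed negative and VHL and HK2 positive in all 16 alternatives. Without 1 library, the log2 fold change ranged over -1.79 to -1.26 for CA12, -1.47 to -0.97 for CA9, -2.29 to -1.35 for ALDOC and -1.63 to -0.59 for PFKL. Genes near zero changed sign: with array weights EGLN1 was at 0.14 and VEGFA at 0.17, and without 1 library EPAS1 ranged over -0.10 to 0.32, EGLN1 over -0.22 to 0.19, EGLN2 over -0.46 to 0.11 and VEGFA over -0.60 to 0.25. The median of the hypoxia members was -0.41 to -0.28 and that of the enzymes -0.09 to 0.04 without 1 library, and the enzyme median was above zero without unsorted replicate 2 (0.04) and with array weights (0.05).

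The labels give replicate numbers 1 to 3 in both groups. Deviations of same-numbered libraries from their group means correlated at 0.117, 0.108 and 0.0369 across genes, and migratory replicate 3 correlated best with unsorted replicate 2, so the numbers were not taken as pairs. With a replicate block 114 genes were called over the whole table, none of them a member, and 3 of the other hypoxia genes.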
